A study of Mus musculus with 18 samples.

Results

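The primitive streak and mesendoderm factors described here are 10 transcription factor genes: T (also called Brachyury), Evx1, Mixl1, Eomes, Tbx6, Mesp1, Foxa2, Sox17, Gsc and Lhx1. They were named for their known place in gastrulation, by a rule that uses no measured value though earlier results of these data were known, and each was found by its Ensembl identifier in the table of raw counts, as 10 of 49671 genes. Mouse embryonic stem (ES) cells were embedded in Matrigel, a gel of basement membrane proteins, and the poly(A) RNA of each three-dimensional culture was sequenced, in 6 groups of 3 replicates. Wild-type E14 ES cells (strain label 12910la, passage 20), kept beforehand in 2i with Lif, were grown for 48 h in N2B27 medium with the solvent DMSO, with 3 µM CHIR99021 (CH), with 3 µM CHIR99021 and 0.4 µM PD0325901 together (2i), or with the ligands Fgf2 (12 ng/ml) and Activin A (20 ng/ml), called Fgf2/Activin. Esrrb fl/fl ES cells with a tamoxifen-inducible Cre recombinase (MerCreMer; strain label Acr-EGFP transgenic mice, passage 25) were grown for 24 h in 3 µM CHIR99021, either after 1 day with 4-hydroxytamoxifen (4OHT), which makes the Cre delete Esrrb (Esrrb null), or with no 4OHT (Esrrb floxed). Both groups of this line therefore had CHIR99021, and no group of it was without. 4OHT and the deletion came together, so the effect of the one cannot be told apart from that of the other.

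CHIR99021 inhibits Gsk3, the kinase that marks β-catenin for destruction, so that β-catenin accumulates and acts with TCF/LEF factors on Wnt target genes. PD0325901 inhibits MEK, the kinase that passes Fgf signals on to ERK. In the embryo, Wnt, Nodal and Fgf signals set up the primitive streak at the posterior of the epiblast, where cells turn to mesoderm and definitive endoderm. The T-box factors T and Eomes act early there, and T is a textbook target of Wnt/β-catenin. Mixl1 and Evx1 are homeodomain factors of the streak, Mesp1 and Tbx6 belong to cardiac and paraxial mesoderm, Foxa2, Gsc and Lhx1 to the anterior streak and node, and Sox17 to endoderm. Esrrb is a nuclear receptor of naive pluripotent cells.

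RefSeq promoters (250 bases before to 50 bases after a transcript start, build GRCm38.p6) matched 8 of the 10 factors, with none for Mixl1 and Sox17. Each was searched on both strands for TCAAAG (the core bound by TCF/LEF), AAGGTCA (a short Esrrb site), GGTGTGA (a short T-box site) and AATNCACA (the FOXH1 motif). None of these 4 motifs overlapped another in the matches found. The promoters of T, Evx1, Eomes and Mesp1 are shown because the first pair rose most with CHIR99021, Eomes fell, and Mesp1 stayed near 0 counts. Capitals mark the matches, written 5′ to 3′ on the strand of the gene. In the order given they lie at chr17:8434173-8434472 (+), chr6:52313248-52313547 (+), chr9:118477939-118478238 (+) and chr7:79793541-79793840 (-).
T: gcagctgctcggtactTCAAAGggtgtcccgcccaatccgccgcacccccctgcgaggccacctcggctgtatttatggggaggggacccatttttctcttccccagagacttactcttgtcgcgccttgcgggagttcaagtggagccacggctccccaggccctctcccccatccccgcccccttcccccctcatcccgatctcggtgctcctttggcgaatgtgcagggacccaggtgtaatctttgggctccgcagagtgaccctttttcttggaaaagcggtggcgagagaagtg
Evx1: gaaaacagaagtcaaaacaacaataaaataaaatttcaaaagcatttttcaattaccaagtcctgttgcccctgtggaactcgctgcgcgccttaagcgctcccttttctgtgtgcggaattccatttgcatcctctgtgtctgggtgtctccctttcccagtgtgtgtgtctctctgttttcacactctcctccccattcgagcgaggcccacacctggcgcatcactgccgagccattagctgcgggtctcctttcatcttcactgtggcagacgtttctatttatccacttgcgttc
Eomes: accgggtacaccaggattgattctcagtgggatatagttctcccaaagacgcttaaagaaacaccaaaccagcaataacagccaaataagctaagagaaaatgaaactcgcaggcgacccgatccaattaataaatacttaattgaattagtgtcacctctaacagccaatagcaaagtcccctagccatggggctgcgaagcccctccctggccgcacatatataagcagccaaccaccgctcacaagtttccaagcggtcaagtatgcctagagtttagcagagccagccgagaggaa
Mesp1: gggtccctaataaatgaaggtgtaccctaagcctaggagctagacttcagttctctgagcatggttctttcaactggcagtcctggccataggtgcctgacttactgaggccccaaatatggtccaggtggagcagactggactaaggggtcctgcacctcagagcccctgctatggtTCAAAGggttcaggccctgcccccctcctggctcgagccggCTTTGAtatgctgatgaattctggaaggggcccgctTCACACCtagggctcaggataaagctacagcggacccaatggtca

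The T promoter held 1 match, TCAAAG on the gene's own strand, starting at -234 from the transcript start (chr17:8434189-8434194). The Mesp1 promoter held TCAAAG at -72 and, on the other strand, at -31, and GGTGTGA on the other strand from position 6. One of the 3 listed starts of Foxa2 had TCAAAG from position 16 after it. No match was found for Evx1, Eomes, Gsc, Tbx6 or Lhx1 in these windows. Of 32851 mouse promoters of the same length, 16% held TCAAAG, 4.72% AAGGTCA, 3.98% GGTGTGA and 3.6% AATNCACA. A match is a description of letters, and Mesp1, with the most matches of the 8, was among the least counted of the 10 factors.

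Between 25388139 and 37158661 reads were assigned to genes in each wild-type sample and 19915222 to 20140699 in each sample of the Esrrb line. Levels are given as CPM, the counts per 1000000 assigned reads on TMM-scaled totals. A gene was called higher or lower where edgeR's quasi-likelihood test gave a Benjamini-Hochberg adjusted p under 0.01 and a log2 fold change above 1 in size. All 6 ES cell markers checked (among them Pou5f1 and Sox2) were counted in every group, but not at equal levels. Their summed CPM was 2250 to 2440 in Esrrb floxed and 1350 to 1430 in Esrrb null cells. Each had a lower mean in null cells, Sox2 at 55.6 ± 10.9 against 295 ± 9.14 CPM (SD, n = 3). In CH the sum was 1910 to 2460, against 1540 to 1620 with DMSO. Dppa4 and Utf1 had lower means in CH than with DMSO, and the others higher ones. The summed CPM of 14 primitive or visceral endoderm markers lay between 268 and 436 over the wild-type samples, and of these markers Ttr was at 0 counts in all 6 groups. Esrrb itself stood at 142, 110 and 109 CPM in the 3 Esrrb floxed replicates and at 58.9, 63.8 and 59.8 in the Esrrb null ones. The groups did not overlap. The gene total also counts reads from any exons that Cre leaves in place. Such reads and reads from cells without the deletion cannot be told apart here, and the part of each was not tested. These are bulk cultures, in which fewer cells of a type and less RNA per cell cannot be told apart.

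Across the series the 10 factors fell into distinct levels. Per kilobase of exon, T was the most abundant of the 10 in CH, at 231 ± 50.8 CPM per kb (SD, n = 3), followed by Evx1 at 7.29 ± 0.377. Mixl1 (1.32 ± 0.865) and Eomes (0.653 ± 0.367) came next there. With DMSO the order was another one, with Eomes first at 2.76 ± 0.655 CPM per kb, Tbx6 next at 0.550 ± 0.189 and T after them at 0.202 ± 0.0508. Fgf2/Activin gave the same first 3, Eomes at 3.44 ± 0.706, Tbx6 at 0.766 ± 0.0709 and T at 0.249 ± 0.137. In Esrrb floxed cells T, Evx1 and Eomes held the first 3 places, at 18.6 ± 2.41, 8.58 ± 0.651 and 5.89 ± 1.83 CPM per kb. In Esrrb null cells T (174 ± 33.3) and Evx1 (29.4 ± 5.51) came first, and Eomes (5.15 ± 1.65) and Mixl1 (5.15 ± 1.01) were level after them. The plot of every sample shows these levels.

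**Figure D1:**
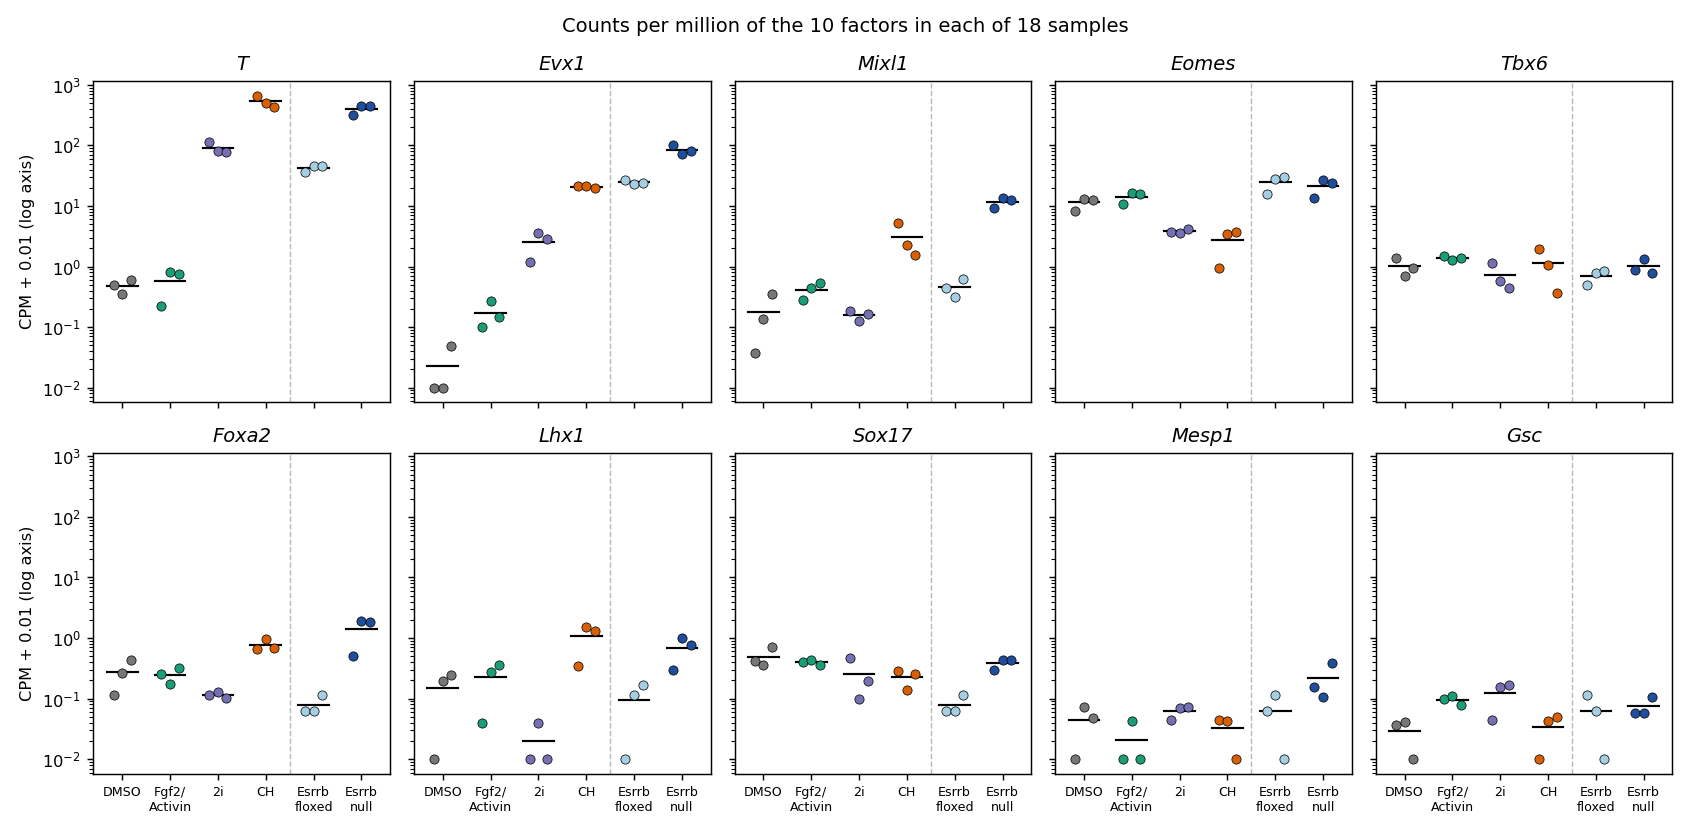
CPM plus 0.01 on a log axis for each of the 10 factors (panels) in the 18 samples, 3 per group. Points are samples, in the order of their replicate numbers, bars are group means, points at 0.01 are samples with 0 counts, and the dashed line separates the wild-type cultures (48 h) from the Esrrb line (24 h). T and Evx1 climb from DMSO to 2i to CH, Eomes is lower in 2i and CH than in DMSO, and Mesp1 and Gsc stay under 0.4 CPM in every sample.

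CHIR99021 alone against DMSO asks what Gsk3 inhibition does to these genes. T, Evx1 and Mixl1 rose and Eomes fell, Foxa2 was called higher at the edge of the threshold, and Tbx6 differed by less than the spread between replicates. Of the 10 factors, 8 passed the filter on low counts, Foxa2 and Lhx1 through the CH samples, where they were highest. Evx1 passed it through the CH and 2i samples only. The place of Evx1, Foxa2 and Lhx1 among the tested therefore favours a rise over DMSO. The 4 called higher stand against 7.51% of all 16413 genes tested, and the 1 called lower against 10.2%. The share called higher is not evidence about Evx1, Foxa2 or Lhx1.

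T, which is needed for posterior mesoderm, was counted at 0.480, 0.344 and 0.579 CPM in the 3 DMSO samples, which are 18, 11 and 15 reads. In CH it stood at 665, 503 and 436 CPM. Every CH sample lay far above every DMSO sample, a log2 fold change of 10.16 ± 0.362 (SE; edgeR quasi-likelihood, adjusted p = 1.77e-08). Leaving out any 1 of the 6 samples moved it only between 9.97 and 10.31.

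Evx1, a homeodomain factor of the posterior streak, had 0, 0 and 1 reads in the DMSO samples and 630, 664 and 493 in CH, where the level was 21.5, 21.7 and 19.7 CPM. The 3 CH samples were close to each other, and the DMSO level rested on a single read. Scaled by library size, CH over DMSO was 2010 (exact 95% counting interval 360 to 79300). The adjusted p was 8.97e-07 (edgeR quasi-likelihood). The fitted log2 fold change for this gene depends on the prior count, and went from 10.48 to 12.35 without DMSO replicate 3, the library with that read.

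Mixl1, a homeodomain factor of mesendoderm, was at 0.0267, 0.125 and 0.347 CPM with DMSO and at 5.28, 2.22 and 1.56 CPM in CH. The groups did not overlap, but CH replicate 1 stood well above the other CH samples. The difference on the log2 scale was 4.27 ± 0.659 (SE; edgeR quasi-likelihood, adjusted p = 3.89e-04). It was 3.60 without CH replicate 1 and 5.31 without DMSO replicate 3, and the call held in both cases.

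Eomes, the T-box factor of the early streak and of endoderm formation, went the other way. It was at 8.33, 13.3 and 12.8 CPM with DMSO and at 0.954, 3.50 and 3.68 CPM in CH. All CH samples lay below all DMSO samples, and CH replicate 1 was the lowest of the 18. On the log2 scale CH was at -2.08 ± 0.397 from DMSO (SE; edgeR quasi-likelihood, adjusted p = 0.00158), and -1.67 without CH replicate 1, with the call kept. The call was lost when only these 6 samples were fitted (adjusted p = 0.0174) and when the test was made against a log2 fold change of 1 (glmTreat, adjusted p = 0.0237).

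Of the anterior factors, Foxa2, a forkhead factor of node and endoderm, was at 0.107, 0.250 and 0.424 CPM with DMSO and at 0.647, 0.948 and 0.680 CPM in CH, which is 17 to 29 reads a sample. The groups did not overlap. The log2 fold change was 1.59 ± 0.416 (SE) with an adjusted p of 0.00986 by edgeR's quasi-likelihood test, just inside the threshold. The call was lost without any 1 of CH replicates 1, 2 and 3 or of DMSO replicates 1 and 2 (adjusted p 0.0138 to 0.0432), with DESeq2 (0.0146) or its size factors (0.0104), with no filter (0.0140), with only the 6 samples fitted (0.0434) and with glmTreat (0.183). In edgeR it was kept with the replicate number as a block (adjusted p = 0.00385). It was also kept with a filter of at least 10 counts in at least 3 samples (0.00997).

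Lhx1, a LIM homeodomain factor of the anterior streak and node, had 0, 6 and 6 reads with DMSO and 10, 47 and 33 in CH, or 0.341, 1.54 and 1.32 CPM. CH replicate 1 was again apart, here on the low side, and still above all DMSO samples. The log2 fold change of 2.99 ± 0.879 (SE) was not called (edgeR quasi-likelihood, adjusted p = 0.0176). It was called with the replicate number as a block, at 3.00 (adjusted p = 1.36e-04), and without CH replicate 1, at 3.42 (adjusted p = 0.00666). Sox17, of definitive and primitive endoderm, was at 0.400, 0.344 and 0.694 CPM with DMSO and 0.273, 0.131 and 0.240 CPM in CH. All 3 CH values were below the DMSO values, with a log2 fold change of -1.13 ± 0.519 (SE) that was not called (edgeR, adjusted p = 0.101).

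Tbx6, the T-box factor of paraxial mesoderm, ranged from 0.360 to 1.94 CPM in CH and from 0.689 to 1.36 CPM with DMSO, with a log2 fold change of 0.17 ± 0.516 (SE; edgeR, adjusted p = 0.818). The CH samples lay on both sides of the DMSO samples. Mesp1 and Gsc (goosecoid) totalled 2 reads each over the 3 CH samples and 3 and 2 over the DMSO samples, which is at or under the limit of 3 counts that a zero allows, so no change was detectable at this depth.

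**Figure D2:**
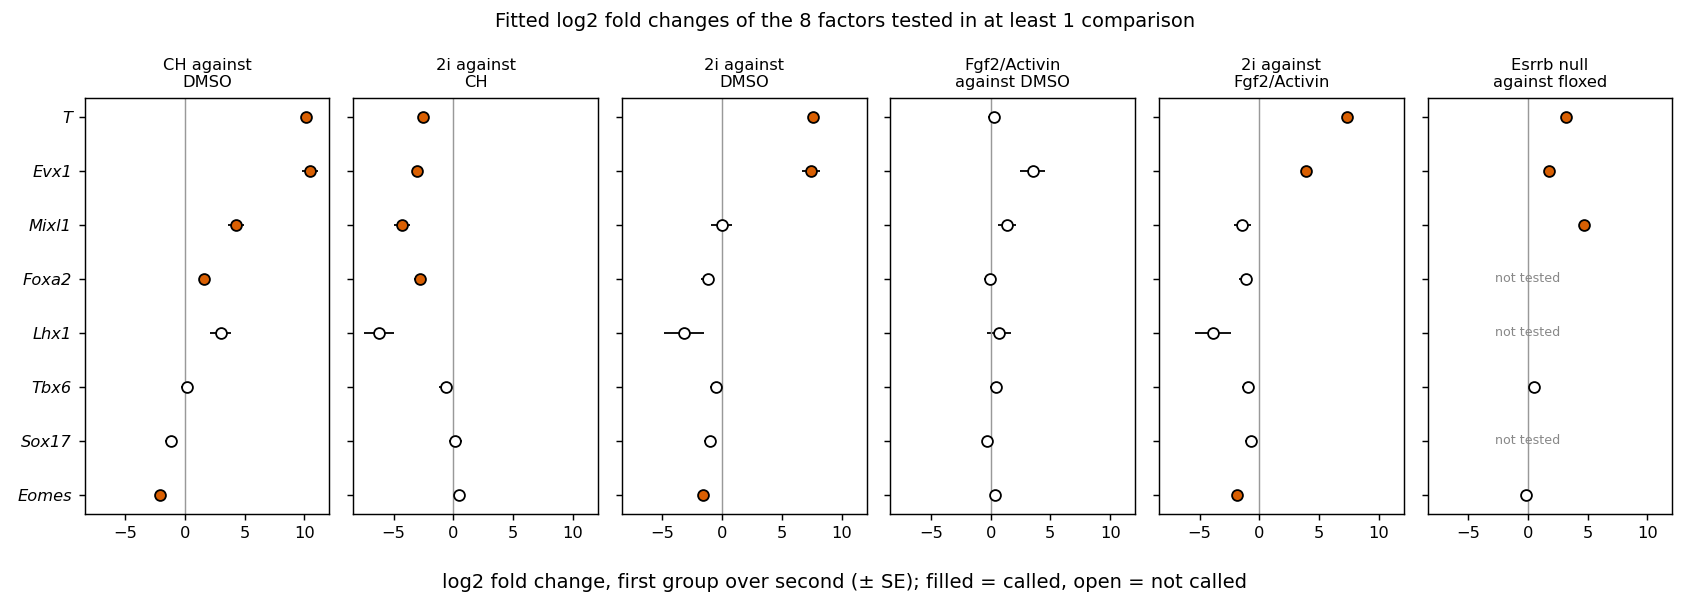
Fitted log2 fold changes (x axis, first group over second, bars are the SE) of the 8 factors tested in at least 1 of the 6 comparisons (panels). Filled points passed an adjusted p under 0.01 with a log2 fold change above 1 in size, and open points did not. T and Evx1 lie right of 0 in the CH and 2i comparisons with DMSO, at 7.46 to 10.48, and left of 0 in 2i against CH, while Eomes lies left of 0 in CH and 2i against DMSO.

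2i holds the CHIR99021 of CH and adds the MEK inhibitor, so 2i against CH compares cultures with and without MEK inhibition under the same Gsk3 inhibition. T, Evx1, Mixl1 and Foxa2 fell. This is 4 of the 8 tested, against 1.67% of all 16413 genes. Foxa2 and Lhx1 passed the filter through the CH samples, where they were highest. Their place among the tested therefore favours a fall from CH, and the share is not evidence about them. None was called higher, by edgeR or by DESeq2, against 0.317% of all genes, and none was higher at an unadjusted p under 0.05. The comparisons of CH with DMSO and of 2i with CH share the CH samples.

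T stood at 114, 80.4 and 79.0 CPM in 2i. These values are all below those of CH and all above those of DMSO. The log2 fold change from CH was -2.55 ± 0.235 (SE; edgeR quasi-likelihood, adjusted p = 2.03e-04), a ratio of 0.167 of the CH level. From DMSO, by contrast, it was 7.61 ± 0.344 (SE; adjusted p = 4.61e-08). T was thus called in both directions, with 2i between the other 2 groups.

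Evx1 was at 1.18, 3.63 and 2.88 CPM in 2i, also between DMSO and CH with no overlap. Its log2 fold change from CH was -3.02 ± 0.382 (SE; edgeR quasi-likelihood, adjusted p = 0.00107). The call was lost when only the 6 samples were fitted (adjusted p = 0.0106) and with glmTreat (0.0118). Against DMSO, 2i was higher by a scaled ratio of 251 (exact 95% counting interval 44.6 to 9950; edgeR adjusted p = 9.96e-06).

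Mixl1 in 2i was at 0.174, 0.118 and 0.156 CPM, within the range of DMSO (log2 fold change from DMSO -0.04 ± 0.838, SE, adjusted p = 0.971 by edgeR). All were below the CH samples, with a log2 fold change from CH of -4.31 ± 0.658 (SE; edgeR quasi-likelihood, adjusted p = 0.00273). The call was lost when only the 6 samples were fitted (adjusted p = 0.0139) and with glmTreat (0.0198). It was also lost without 2i replicate 1, 2 or 3 (adjusted p = 0.013, 0.0208 and 0.0189), with the fold change at -4.16 to -4.43. Without CH replicate 1 the fold change was -3.64, and still called. For Mixl1 the 2i and DMSO samples thus overlapped, while for T and Evx1 they did not.

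Foxa2 in 2i was at 0.105, 0.118 and 0.0937 CPM, 3 or 4 reads a sample, all below CH. The log2 fold change from CH was -2.80 ± 0.468 (SE; edgeR quasi-likelihood, adjusted p = 0.00462). It was not called with glmTreat (adjusted p = 0.0594), nor without CH replicates 2 or 3 or any of 2i replicates 1 to 3 (0.0115 to 0.0284). Lhx1 had 1 read in the 3 samples of 2i together, against 90 in CH, a scaled ratio of 0.00997 (exact 95% counting interval 0.00025 to 0.0570). It was not called (adjusted p = 0.0132), but was with the replicate block (adjusted p = 1.24e-04), by DESeq2 (8.27e-04) and without CH replicate 1 (0.00767).

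Eomes in 2i, at 3.69, 3.63 and 4.13 CPM, did not differ from CH beyond the spread. Its log2 fold change was 0.50 ± 0.395 (SE; edgeR, adjusted p = 0.582). Against DMSO it fell by 1.58 on the log2 scale, ± 0.387 (SE; adjusted p = 0.00559). That call was lost with glmTreat (0.122) and without DMSO replicate 2 or 3 or 2i replicate 1, 2 or 3 (adjusted p 0.0184 to 0.0237).

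The other factors gave no call in 2i against CH or DMSO. Tbx6, at 1.15, 0.560 and 0.438 CPM, overlapped both groups, as did Sox17 at 0.453, 0.0885 and 0.188 CPM. Gsc had 1, 5 and 5 reads in 2i, all samples slightly above those with DMSO, with a scaled ratio of 5.54 (exact 95% counting interval 1.21 to 51.5). It was too low to be tested, and with no filter the edgeR adjusted p was 0.0809. Mesp1 had 1, 2 and 2 reads in 2i.

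Over the 8 tested, 2i against DMSO gave 2 called higher (T and Evx1), against 8.37% of all genes, and 1 called lower (Eomes), against 14%. Against Fgf2/Activin, the same names were called: T at 7.32 ± 0.336 and Evx1 at 3.95 ± 0.495 on the log2 scale (SE; edgeR adjusted p = 4.64e-08 and 6.09e-05), against 9.13% of all genes, and Eomes lower at -1.90 ± 0.389 (adjusted p = 0.00178), against 14.4%. These comparisons share the 2i samples. Evx1 passed the filter through the 2i and CH samples only, so neither share of genes called higher is evidence about it. With the replicate block Lhx1 was also called lower in 2i than in Fgf2/Activin, at -3.92 (adjusted p = 0.00203). Without it, the adjusted p was 0.0548.

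Fgf2 and Activin A, which stimulate ERK and the Nodal receptors, were given alone in the fourth wild-type group, and Fgf2/Activin against DMSO asks which of the factors respond to these ligands without Gsk3 inhibition. None of the 8 was called in either direction, by edgeR or by DESeq2, against 0.902% of all genes called higher and 0.347% lower. At an unadjusted p under 0.05 there was 1, Evx1, with 3, 8 and 4 reads against 0, 0 and 1. Its scaled ratio was 15.5 (exact 95% counting interval 2.38 to 651), with an edgeR adjusted p of 0.101.

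T was at 0.211, 0.789 and 0.730 CPM with Fgf2/Activin, on both sides of the DMSO samples (log2 fold change 0.29 ± 0.490, SE, adjusted p = 0.845). Eomes was at 10.9, 16.2 and 15.8 CPM, the highest mean of the wild-type groups. It overlapped DMSO, with a log2 fold change of 0.32 ± 0.371 (SE; edgeR, adjusted p = 0.751). Mixl1, at 0.271, 0.427 and 0.521 CPM, also overlapped DMSO (1.37 ± 0.722, SE, adjusted p = 0.385). Gsc had 3, 3 and 2 reads against 1, 1 and 0 with DMSO, a scaled ratio of 4.13 whose counting interval of 0.823 to 39.9 includes 1.

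The Esrrb line asks what becomes of the same genes when Esrrb is deleted while CHIR99021 stays in the medium. T, Mixl1 and Evx1 rose in Esrrb null cells, and Eomes and Tbx6 differed by less than the spread. Here 5 of the 10 factors passed the filter. Mixl1 did so through the null samples, where it was high, so its place among the tested depends on its rise. The 3 called higher stand against 12.8% of all 14893 genes tested. None was called lower, by edgeR, by DESeq2 or at an unadjusted p under 0.05, against 3.87% of all genes.

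Esrrb floxed cells held T at 36.5, 46.5 and 45.8 CPM, and Esrrb null cells at 313, 448 and 446 CPM. The lowest null sample, replicate 1, was above every floxed one by a wide margin. Null cells were higher by 3.23 ± 0.155 on the log2 scale (SE; edgeR quasi-likelihood, adjusted p = 2.20e-06). Wild-type cells in CH for 48 h had 436 to 665 CPM, but line, passage and time all differ between these sets, so no comparison was made.

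Mixl1 was at 0.425, 0.307 and 0.621 CPM in floxed and at 9.20, 13.6 and 12.6 CPM in null cells. In reads this is 26 over the floxed samples against 737. The log2 fold change of 4.69 ± 0.267 (SE; edgeR quasi-likelihood, adjusted p = 4.81e-06) was the largest of the 5 factors tested in this line. Evx1 was at 26.8, 23.4 and 23.8 CPM in floxed and at 102, 71.2 and 80.5 CPM in null cells, 1.78 ± 0.131 higher on the log2 scale (SE; adjusted p = 1.31e-05). No sample of either gene overlapped, and all 3 calls were kept under each of 7 other settings and with any 1 replicate left out.

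Eomes was among the most abundant of the factors in the floxed cells. It stood at 15.7, 28.1 and 29.6 CPM in floxed and 13.7, 26.8 and 23.7 CPM in null cells. Replicate 1 was the lowest of each group. Null over floxed came to -0.19 ± 0.280 on the log2 scale (SE; edgeR, adjusted p = 0.577), with the null sample the lower one in 3 of 3 pairs of replicate numbers. With the replicate block the adjusted p was 0.0389, still not a call. Without null replicate 1, which leaves its floxed partner alone, the value was 0.05. Whether the response of T differed from that of Eomes was not tested.

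**Figure D3:**
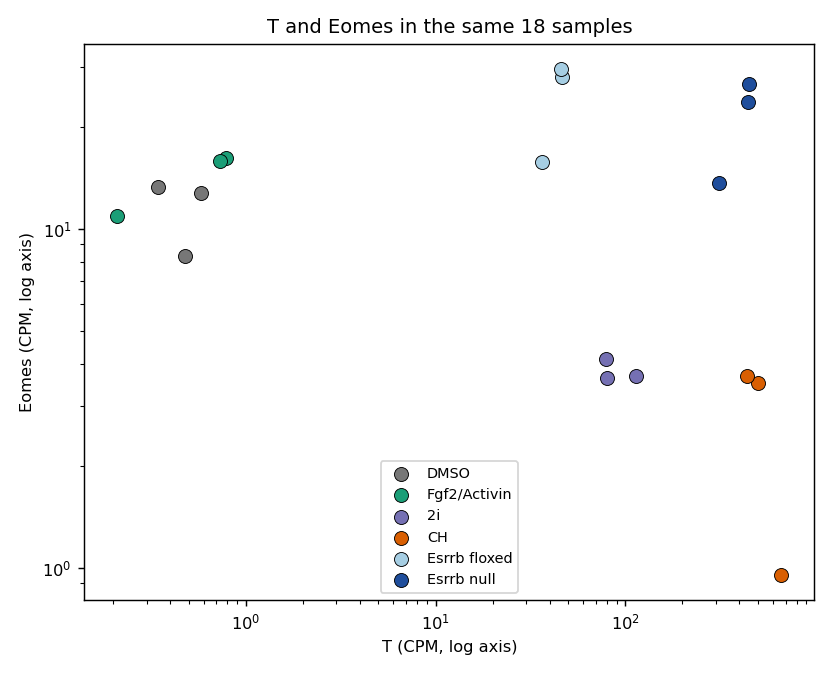
T (x axis, CPM) against Eomes (y axis, CPM), both on log axes, in each of the 18 samples, coloured by group. CH and 2i lie at high T and at Eomes under 5 CPM, DMSO and Fgf2/Activin at T under 1 CPM with Eomes from 8.33 to 16.2 CPM, and both groups of the Esrrb line combine T above 30 CPM with Eomes above 13 CPM.

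Foxa2, Lhx1 and Sox17 did not reach the counts that the filter asks for in 3 samples of this line. Foxa2 had 1, 1 and 2 reads in floxed and 10, 40 and 38 in null cells, or 0.487, 1.91 and 1.82 CPM. Its scaled ratio was 20.3 (exact 95% counting interval 7.67 to 76.3). Null replicate 1 was well below the other null samples and still above all floxed ones. Lhx1 had 0, 2 and 3 reads against 6, 21 and 16, a ratio of 7.95 (3.16 to 25.7). Sox17 had 1, 1 and 2 against 6, 9 and 9, a ratio of 5.55 (1.91 to 22.0).

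With no filter edgeR called Foxa2, Lhx1 and Sox17 higher, at log2 fold changes of 4.22, 2.90 and 2.36 (adjusted p = 8.25e-05, 0.00292 and 0.0065), against 7.59% of all 27923 genes in that fit. Of the fits with 1 replicate left out, 4 tested Lhx1 and 1 of these called it, with an adjusted p of up to 0.0264. The intervals cover counting error only. Mesp1 had 13 reads over the null and 3 over the floxed samples, with overlap and a ratio of 4.01 (1.10 to 21.9). Gsc had 4 and 3 reads. Tbx6, at 0.876, 1.34 and 0.765 CPM in null and 0.478, 0.768 and 0.828 CPM in floxed cells, overlapped (0.52 ± 0.324, SE, adjusted p = 0.201).

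Markers of other lineages moved in the same samples. The summed CPM of the 14 primitive or visceral endoderm markers was 721 to 900 in Esrrb null and 436 to 463 in floxed cells, with Ttr at 0 in both, Afp under 0.04 CPM and Gata6 under 1 CPM. Most of this sum was Sparc (501 ± 105 against 293 ± 20.4 CPM, SD, n = 3) and Lamb1 (199 ± 17.0 against 107 ± 6.13). Means were also higher in null cells for Col4a1 (66.0 ± 9.76 against 13.9 ± 0.685) and Gata4 (1.35 ± 0.257 against 0.558 ± 0.222). The same held for Amn (1.17 ± 0.213 against 0.505 ± 0.192), Cubn, Dab2 and Apoa1. Hnf4a (1.01 ± 0.386 against 3.16 ± 1.15) and Sox7 (0.112 ± 0.0727 against 1.06 ± 0.328) had lower means in null cells, as did Lama1, Gata6 and Afp. The summed CPM of 8 trophoblast markers was 38.2 to 48.4 in null against 23.5 to 29.4 in floxed cells. In the wild-type cells it was 53.6 to 100 in CH against 11.9 to 23 with DMSO, with Prl3d1 at 0 in all groups. In CH this sum was mostly Cdx2, also a streak gene (63.8 ± 24.7 CPM), and Ascl2 was lower than with DMSO (6.17 ± 0.497 against 14.9 ± 5.97). The sum of 10 neural markers was 274 to 280 in null against 107 to 118 in floxed cells, and 22.7 to 49.3 in CH against 118 to 174 with DMSO. The higher sum in null cells was that of Nes (207 ± 2.1 against 31.0 ± 7.53 CPM), while Tubb3 was lower (5.80 ± 1.05 against 17.1 ± 6.20), and Olig2 stood at 62.0 CPM in both groups of the Esrrb line against 0 in CH. The part of such cells in the values of the 10 factors was not tested.

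Beyond the 10, a list of 33 other streak and nascent mesoderm genes was followed, of which 27 were tested. In CH against DMSO, 17 were higher and 2 lower, with a median log2 fold change of 3.28 beside -0.0022 over all genes. Sp5, a Wnt-induced zinc finger factor, went from 0.0402 ± 0.0484 to 213 ± 81.6 CPM (SD, n = 3). Cdx2, a caudal factor of the posterior body, went from 0.0932 ± 0.0820 to 63.8 ± 24.7 CPM. Cdx1 had 0 reads with DMSO and 27.4 ± 7.40 CPM in CH, and Nkx1-2 went from 0.644 ± 0.555 to 126 ± 9.53 CPM.

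With the MEK inhibitor also present (2i against CH) 1 of the 27 was higher and 10 were lower, with a median of -1.2 beside -0.00326. Wnt8a, a Wnt ligand of the streak, fell from 25.0 ± 3.83 to 2.60 ± 0.470 CPM (SD, n = 3; log2 fold change -3.26, edgeR adjusted p = 0.00273). Cdx4, Cdx2 and Dll3, a Notch ligand of presomitic mesoderm, fell too, with log2 fold changes of -3.06, -2.66 and -2.56 (adjusted p = 0.00143, 0.00202 and 1.75e-04). The gene called higher was Lefty2, a Nodal target, at 1.74 (adjusted p = 0.00195). In 2i against DMSO, 10 were higher and 3 lower, beside 8.37% and 14% of all genes. In 2i against Fgf2/Activin the counts were 8 and 3, beside 9.13% and 14.4%. In Fgf2/Activin against DMSO there were 4 higher and none lower, among them Lefty2 (136 ± 15.0 against 0.513 ± 0.430 CPM), Nodal (60.4 ± 3.02 against 7.86 ± 2.39) and Fgf17 (2.13 ± 0.551 against 0.721 ± 0.0705).

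In Esrrb null against floxed cells, 17 of the 27 were higher and 2 lower, with a median of 1.34 beside 0.00214. The ligand Fgf8 had 11 reads in floxed cells and stood at 9.71 ± 2.06 CPM in null cells (SD, n = 3; log2 fold change 5.62, edgeR adjusted p = 2.03e-05). Wnt3, the ligand that starts the streak in the embryo, went from 0.780 ± 0.0870 to 33.2 ± 2.07 CPM (log2 fold change 5.40, adjusted p = 1.66e-07). Dll3 and Sp5 were higher by 3.51 and 1.97 on the log2 scale (adjusted p = 1.56e-05 and 5.99e-07).

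The list of 20 anterior streak, node and definitive endoderm genes, of which 13 were tested, was more divided. Counts in this list, in the streak list above and in the lists below stand beside the shares of all genes called higher and lower. These were 7.51% and 10.2% in CH against DMSO, and 12.8% and 3.87% in Esrrb null cells. They were 0.317% and 1.67% in 2i against CH, and 8.37% and 14% in 2i against DMSO. The shares were 9.13% and 14.4% in 2i against Fgf2/Activin, and 0.902% and 0.347% in Fgf2/Activin against DMSO. In CH against DMSO 4 were higher and 3 lower, with Trh, a hormone precursor that the node expresses, higher at 984 ± 101 against 21.6 ± 2.80 CPM (SD, n = 3), and Foxj1, a factor for motile cilia, lower at 1.63 ± 0.0964 against 15.0 ± 3.34 CPM. In 2i against CH none was called by edgeR in either direction, and Trh was also high in 2i, at 788 ± 62 CPM. In Esrrb null cells 7 were higher and 2 lower, Otx2, a factor of anterior identity, being lower at 22.9 ± 8.89 against 69.1 ± 14.6 CPM. The other counts were 4 higher and 4 lower in 2i against DMSO and likewise against Fgf2/Activin, and 2 higher and none lower in Fgf2/Activin against DMSO.

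Among targets of the pathways used, 5 of 12 Wnt/β-catenin targets were higher in CH than with DMSO and none lower, with Axin2, a feedback inhibitor, at 195 ± 65.4 against 7.81 ± 1.26 CPM (SD, n = 3). In 2i against CH 1 of the 12 was lower (Nkd1). In 2i 5 were higher than with DMSO, and 6 were higher and 2 lower than with Fgf2/Activin, where none differed from DMSO by edgeR's test. In Esrrb null cells 5 were higher and none lower, with Nkd1 at 20.9 ± 2.75 against 2.16 ± 0.402 CPM.

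Of 14 ERK targets, 4 were lower in 2i than in CH and none higher. The immediate-early gene Egr1 fell from 152 ± 14.6 to 1.26 ± 0.443 CPM (SD, n = 3), and Dusp4, Spry4 and Dusp6, feedback inhibitors of ERK signalling, fell with log2 fold changes of -2.88, -2.63 and -1.80. In CH against DMSO 2 of the 14 were higher and 1 lower, beside 7.51% and 10.2% of all genes. In 2i 6 were lower than with DMSO and 7 lower than with Fgf2/Activin. In Fgf2/Activin against DMSO 1 was higher (Egr1). In Esrrb null cells 3 of the 14 were higher and 2 lower, beside 12.8% and 3.87% of all genes. Dusp4 was higher (121 ± 12.6 against 49.8 ± 9.78 CPM) and Spry2 lower (30.3 ± 2.38 against 67.1 ± 7.98 CPM).

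Of 8 tested Nodal/Activin targets, 6 were higher with Fgf2/Activin than with DMSO, among them Lefty1 (155 ± 15.8 against 0.970 ± 0.540 CPM, SD, n = 3) and Smad7, an inhibitor of the pathway (79.9 ± 7.30 against 2.03 ± 0.798). CH and 2i each had 5 higher than DMSO and none lower, and the Esrrb null cells 3 higher and none lower. In 2i against CH 1 was higher, and in 2i against Fgf2/Activin 3 were lower. All 11 naive pluripotency genes tested were higher in CH and in 2i than with DMSO, and in 2i than with Fgf2/Activin. In 2i against CH 1 was higher (Prdm14), with Fgf2/Activin 1 was lower than with DMSO (Klf2), and in Esrrb null cells 3 were lower (Nr0b1, Klf2 and Klf4), with Klf2 at 33.9 ± 3.51 against 164 ± 4.99 CPM. Some genes, such as Sp5, Cdx1, Lefty2 and Nodal, stand in more than 1 of these lists.

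**Figure D4:**
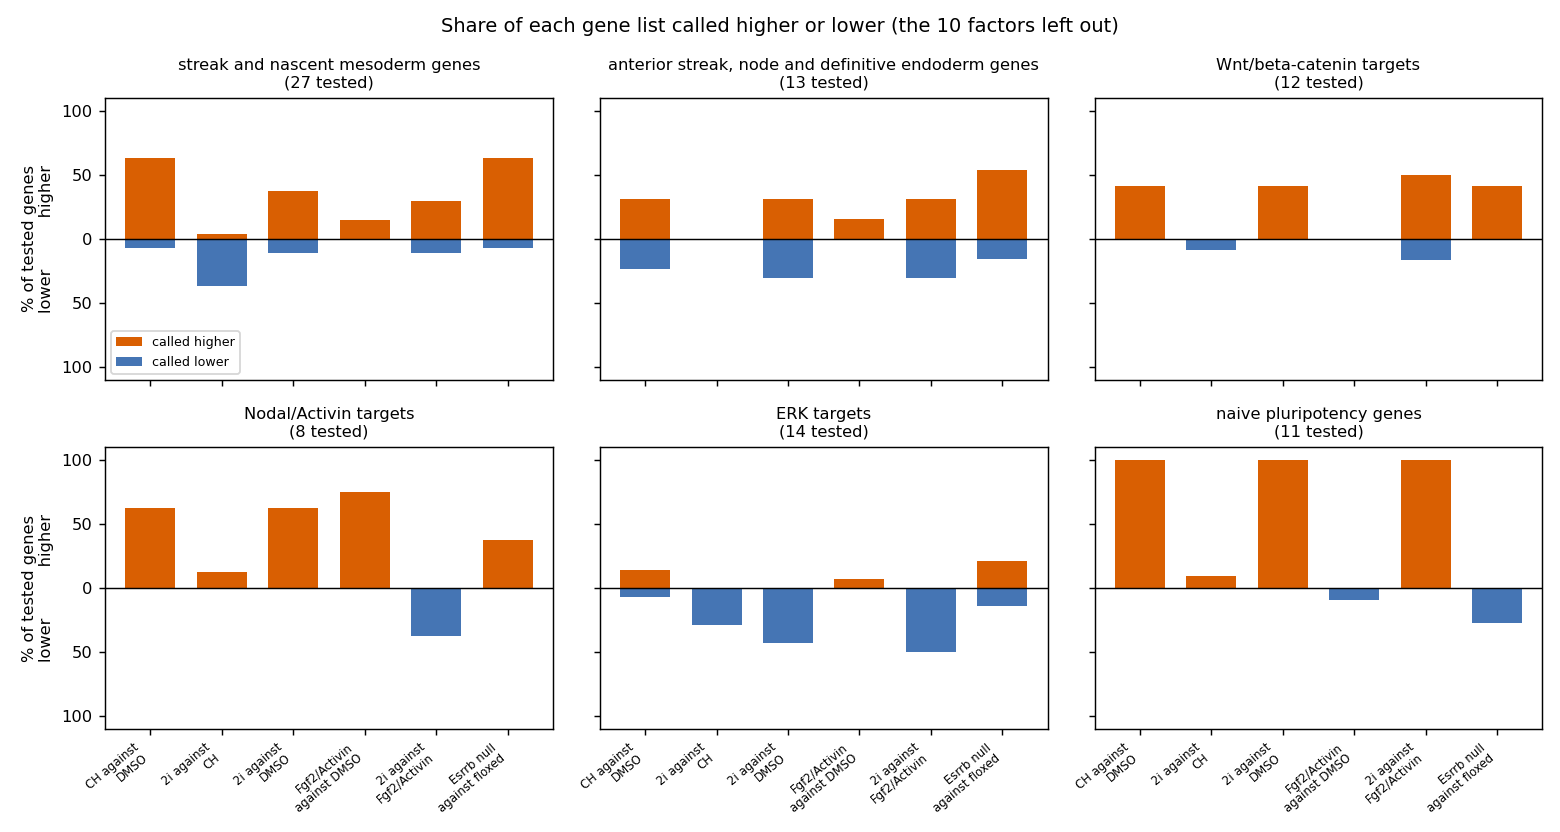
Share of the tested genes (y axis, percent) called higher (above 0) or lower (below 0) in each of the 6 comparisons (x axis), for 6 gene lists that leave out the 10 factors. The streak and nascent mesoderm list has 17 of 27 called higher both in CH against DMSO and in Esrrb null against floxed cells, and 10 of 27 lower in 2i against CH.

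Across all 18 samples, the log2(CPM + 1) values of 14535 genes were set beside those of T and of Eomes, as a description only, since the samples share groups and lines. The genes most like T were Ttbk2 (Pearson r = 0.98), Sp5 (0.979), Uhrf2 (0.973), Sp8 (0.969) and Cdx2 (0.969). Those most like Eomes were Txnrd1 (0.964), Anpep (0.939), Atg9b (0.93), Tes (0.929) and Efnb2 (0.923). Among the factors themselves, T went with Evx1 (r = 0.853) and Mixl1 (0.67), and Eomes with neither T (-0.306) nor Evx1 (0.152).

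In GRCm38 the 10 genes lie on 8 chromosomes. T is at chr17:8434423-8442496 (+), Evx1 at chr6:52313498-52318378 (+), Mixl1 at chr1:180693043-180697034 (-), Eomes at chr9:118478212-118486132 (+) and Tbx6 at chr7:126781483-126785560 (+). The others are Mesp1 at chr7:79792241-79793788 (-), Foxa2 at chr2:148042877-148046969 (-), Sox17 at chr1:4490931-4497354 (-), Gsc at chr12:104471209-104473330 (-) and Lhx1 at chr11:84518284-84525535 (-). Reads were counted without regard to strand, and exons of 3 of the genes overlap a gene on the other strand. The overlap takes 16.8% of the exon length of Sox17 (Gm37587), 2.84% of Eomes (Gm33460) and 2.54% of Evx1 (Evx1os), so reads there cannot be told apart between partners.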

How the data were processed

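Per the labels and the study's methods, poly(A) RNA was made into libraries with a strand-specific kit, and the authors aligned the reads with TopHat2 to mm10 and counted them per Ensembl GRCm38 gene with HTSeq without strand. The deposited table holds these raw counts for 18 samples, 3 per group. The study's methods state in general that experiments were repeated independently, but the labels do not tie the replicates to separate cultures, so p-values measure the spread between these samples. The replicate pairs differed by more than sampling noise (chi-square per gene 1.42 to 59.7 over 18 pairs), so none was counted as 1 sample.

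The counts were fitted with edgeR 4.0.16 (R 4.3.3; glmQLFit and glmQLFTest, TMM scaling, filterByExpr, default prior count) on the 12 wild-type samples together and on the 6 samples of the Esrrb line, with p-values adjusted by Benjamini-Hochberg over all genes tested. The thresholds (adjusted p under 0.01, log2 fold change above 1) are those of the study's methods. CPM use TMM-scaled totals, and CPM per kb divides by the summed exon length of GENCODE M21. The ratios of summed counts have exact binomial 95% intervals, which cover counting error only. Alternatives were DESeq2 1.42.0, its size factors, unscaled totals for the levels, other filters, no minimum fold change, glmTreat, a replicate block, the 6 samples alone, each replicate left out, and, chosen after seeing the data, only replicates 2 and 3.

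Replicate numbers come from the sample titles. Same-numbered samples deviated together from their group means. Their correlations had a mean of 0.587 and a lowest of 0.385 over 18 wild-type pairs. Over 3 pairs of the Esrrb line these were 0.449 and 0.39. Differently numbered samples had means of -0.223 and -0.183, but single pairs reached 0.733 and 0.447. The numbers were taken as pairs. The reported fits leave this pairing out, and blocked values stand beside results whose call they change. With the block, the genes called in 2i against CH went from 52 higher and 274 lower to 138 and 534.

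The 10 factors, the gene lists and the markers were chosen with earlier results of these data known. The text names the 10 factors, at most 4 called genes of a list per comparison (largest fold change among those with a mean of at least 100 counts), Esrrb, and the 5 genes most correlated with T and with Eomes. Genes called as the only one in their list were named after their values were seen where the rule did not name them.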

Additional observations from a re-analysis of the deposited data

How the results depend on the processing

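Of 172 counts of factors called under another setting, 154 stayed within 1.5 times the reported one. The other 18 are as follows. The factors called lower in CH than with DMSO went from 1 to 0 with glmTreat and with only the 6 samples fitted. Those lower in 2i than in CH went from 4 to 1 with glmTreat and 2 with the 6 samples, and lay between 2 and 4 with a replicate left out. Those lower in 2i than with DMSO went from 1 to 0 with glmTreat, and lay between 0 and 1 with a replicate left out. Those lower in 2i than with Fgf2/Activin went from 1 to 0 with glmTreat and to 2 with the replicate block. Those higher in Esrrb null cells went from 3 to 6 with no filter and to 5 with only replicates 2 and 3, and lay between 3 and 5 with a replicate left out. Leaving out a library also leaves fewer samples, and apart from that the cause was not tested.

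Of 636 fold changes of single factors under another setting, 581 kept direction and call, 33 lost the call and 9 gained one. The 13 that turned direction were of changes not called. Tbx6 in CH against DMSO was -0.12 with only replicates 2 and 3 and -0.48 to 0.60 with a replicate left out. Sox17 in 2i against CH was -0.39 with only replicates 2 and 3 and -0.62 to 0.57 with one left out. With a replicate left out, Mixl1 in 2i against DMSO lay between -0.61 and 0.99, and Eomes in Esrrb null against floxed cells between -0.435 and 0.045. In Fgf2/Activin against DMSO the ranges were -0.022 to 0.71 for T, -0.47 to 0.44 for Foxa2 and -0.47 to 0.059 for Sox17.

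With the replicate block, Lhx1 was called in 3 comparisons where the reported fit did not call it (-6.28 in 2i against CH), and the block changed no other call of a factor. Depth limits Mesp1 and Gsc, at 0 to 8 reads a sample.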

Other observations

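The 3 lists of other lineages were counted by the same edgeR calls as the factors. Their counts are small, and stand beside the shares of all genes given above for each comparison. Of 11 tested primitive or visceral endoderm genes, 2 were higher and 5 lower in CH than with DMSO, among them the basement membrane genes Lama1, higher at 62.9 ± 34.8 against 9.88 ± 2.32 CPM (SD, n = 3), and Col4a1, lower at 3.97 ± 0.823 against 23.9 ± 6.77 CPM. In 2i the counts were 2 higher and 7 lower against DMSO, and 2 and 6 against Fgf2/Activin, with 0 and 1 against CH. In Esrrb null cells 2 of 10 were higher and 2 lower, beside 12.8% and 3.87% of all genes, Col4a1 being higher at 66.0 ± 9.76 against 13.9 ± 0.685 CPM. None of the 11 was called with Fgf2/Activin against DMSO.

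Of 4 tested trophoblast genes, Cdx2 was higher and Ascl2, a factor of the placenta, lower in CH than with DMSO (6.17 ± 0.497 against 14.9 ± 5.97 CPM for Ascl2, SD, n = 3). In all, 2 were higher and 1 lower both in CH and in 2i against DMSO, 1 and 1 in 2i against Fgf2/Activin, 0 and 1 in 2i against CH, and 2 and 0 in Esrrb null cells. Of 6 tested neural genes, 1 was lower in CH than with DMSO, namely Nes, the intermediate filament nestin, at 19.5 ± 4.96 against 74.9 ± 12.1 CPM. Nes was also the 1 lower in 2i than in CH and than with DMSO, and 2 were lower in 2i than with Fgf2/Activin. In Esrrb null cells 2 of 5 neural genes were higher and 2 lower, Nes being higher at 207 ± 2.1 against 31.0 ± 7.53 CPM and the neuronal tubulin Tubb3 lower at 5.80 ± 1.05 against 17.1 ± 6.20 CPM. Nes thus moved down with CHIR99021 and up with Esrrb loss, in a line that had CHIR99021 in both groups. No trophoblast or neural gene was called with Fgf2/Activin against DMSO.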
